A study of Homo sapiens with 51 samples.

Results

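KP4 cells given OVOL2 were compared with KP4 cells given mCherry, in both cases without the M2rtTA transactivator. KP4 is an established human pancreatic ductal adenocarcinoma (PDA) line, called morphogenic in the labels. Libraries were chosen by sample title, which gave 3 with OVOL2 and 3 with mCherry, or 6 of the 51 libraries of the series. The series as a whole measured 3′-end transcript counts by PLATE-seq, a barcoded and pooled RNA-seq method, in PDA lines with and without transduced open reading frames (ORFs). Both groups were transduced in triplicate at a multiplicity of infection of 2 with 8 µg/ml polybrene, and were kept from the next day in 2.5 µg/ml puromycin with 0.6 µg/ml doxycycline. RNA was collected after 6 days in total, and each library started from 100 ng. The groups differed in the ORF: the transcription factor OVOL2, or the fluorescent protein mCherry as control. In a parallel set, not part of the groups compared here, a virus for M2rtTA, an activator of tetracycline-inducible promoters, was added. KP4 is a single line, and the labels do not say whether the triplicates were separate cultures beyond the transduction, so the p-values measure the spread between these libraries.

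OVOL2 is a zinc-finger transcription factor of epithelia that is known mainly as a repressor, with ZEB1 and other genes of the mesenchymal state among its targets. In carcinomas the epithelial state rests on E-cadherin junctions, apical-basal polarity and the ESRP splicing factors, and the mesenchymal state on vimentin, N-cadherin and ZEB1, which itself represses E-cadherin through E-box sequences. PDA lines range between these states. A separate pathway met below is the interferon response, in which STAT proteins and IRF9 bind elements of repeated GAAA in front of genes such as ISG15 and MX1.

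The 6 libraries held 4197270 to 6503286 counts, detected 17429 to 18430 genes and took 22.9% to 24.23% of their counts from mitochondrial genes. Levels are given as CPM, each library's counts relative to its TMM-normalised total. Keratin and ductal markers, which the labelled cell type should have, summed to 974 to 1114 CPM with OVOL2 and 785 to 866 with mCherry. Leukocyte markers summed to 5.05 to 6.14 and 4.63 to 7.33 CPM with CD3D at 0 in all 6 libraries, endothelial markers to 6.75 to 11.7 and 5.22 to 9.68, and acinar and islet markers to 20.6 to 26.3 and 24.5 to 32.6 with CPA1, INS and CHGA at 0. Fibroblast and stellate markers summed to 55.2 to 59.5 CPM with OVOL2 and 91.9 to 96.4 with mCherry, and their part in the results was not tested. No marker of that list was at 0 in all 6 libraries. However, LUM, PDGFRB, THY1 and FAP held only 6, 7, 12 and 18 counts over all 6. RGS5 held the most, with 145, 83 and 119 counts with OVOL2 and 292, 253 and 212 with mCherry, so the sum follows RGS5 closely. In bulk libraries, fewer cells of a type and less RNA per cell cannot be told apart.

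Transcript counts at the OVOL2 gene did not separate the groups. The 3 OVOL2 libraries held 10, 7 and 4 OVOL2 counts and the mCherry libraries 12, 7 and 0, or 1.54, 1.36 and 0.640 CPM against 1.90, 1.48 and 0. Untreated KP4 held 4, 2 and 4 counts. The ranges overlapped, the difference on the log2(CPM + 1) scale was 0.15, and an exact permutation test gave p = 0.9, where 3 against 3 cannot go below 0.1. Without mCherry replicate 3 the difference was −0.32. Whether 3′-end counting can see the transduced ORF is not given in the sources used here. It is therefore not known whether these counts check the labels. With M2rtTA, outside the groups compared, KP4 held 13, 62 and 9 OVOL2 counts with OVOL2 and 2, 0 and 6 with mCherry. In PK45H with M2rtTA they were 23, 18 and 18 against 7, 3 and 12. In PANC1 with M2rtTA the groups overlapped, at 6, 20 and 9 against 7, 3 and 2. Whether these counts come from the ORF or the native gene was not tested. GRHL2, an epithelial transcription factor, had too few counts to be tested (14 in all 3 OVOL2 libraries and 22 in the mCherry libraries).

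A total of 932 of 13662 genes tested (6.82%) changed at an adjusted p under 0.05 in edgeR's quasi-likelihood test with Benjamini-Hochberg adjustment, the test behind every adjusted p below unless another is named. Of these, 446 rose with OVOL2 (3.26% of the genes tested) and 486 fell (3.56%). A value in parentheses after a gene is its log2 fold change, OVOL2 minus mCherry, with its standard error (SE) where given. At least 2-fold changes were seen in 217 that rose and 238 that fell, and at least 4-fold changes in 63 and 44. The median log2 fold change over all genes tested was under 0.01 in size, and the CPM of 910 of the called genes did not overlap between the groups, which 26.4% of all genes tested also did not. Absence of overlap was a condition for naming the genes with the smallest p or largest fold change. For those genes it adds no evidence. Genes that fell had a median of 29.4 CPM in the mCherry libraries and genes that rose 12.7, beside 12.5 for all genes tested. When 1 library was left out, the number of changed genes was between 471 (without OVOL2 replicate 2) and 566 (without OVOL2 replicate 3), with 490, 555 and 542 without mCherry replicate 1, 2 and 3 and 549 without OVOL2 replicate 1. By contrast, none of the 13662 genes passed the same test between the mCherry and the untreated KP4 libraries (966 at an unadjusted p under 0.05). A gene that did not pass may still differ.

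**Figure D1:**
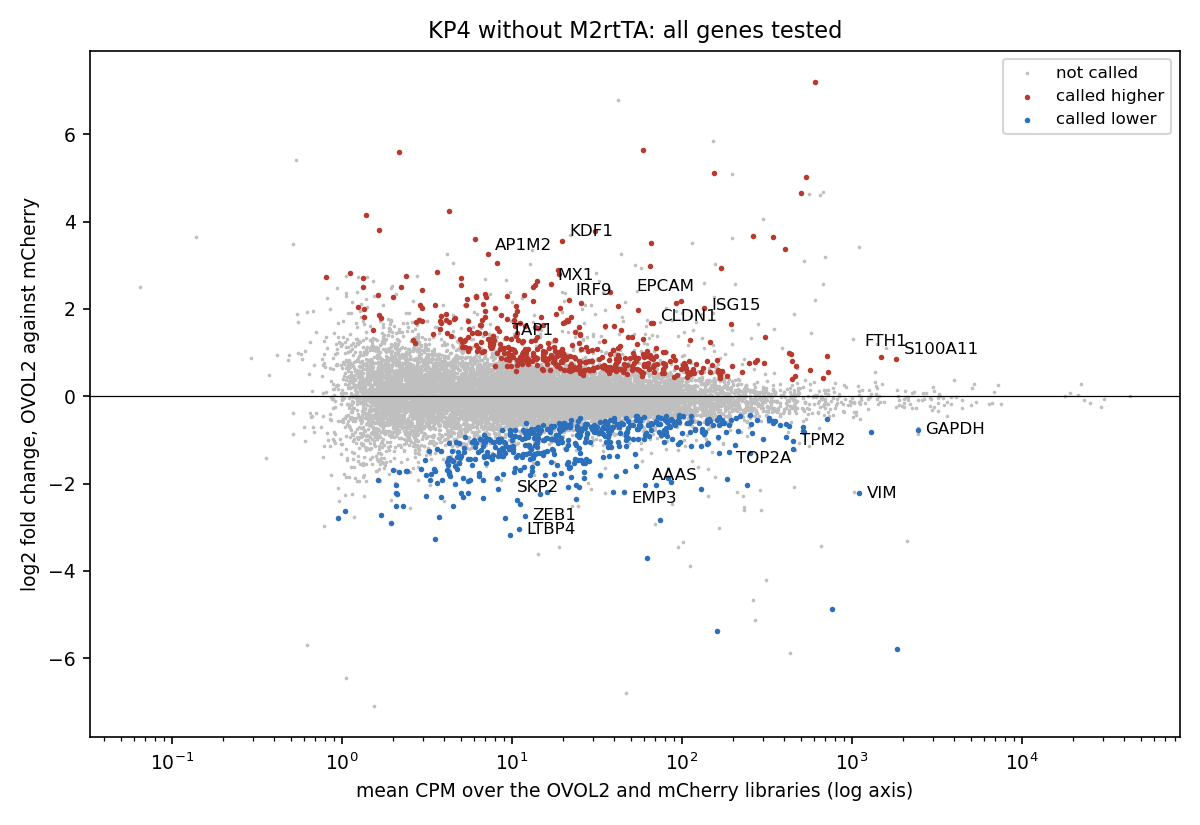
Each point is 1 of the 13662 genes tested, with its mean CPM over the 6 libraries on a log axis against its log2 fold change, OVOL2 minus mCherry, in KP4 without M2rtTA. Red points are the 446 genes that rose and blue points the 486 that fell; both lie at low and at high levels, from AP1M2 to FTH1 and from LTBP4 to GAPDH.

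Epithelial adhesion genes were among the clearest risers. CDH1, which encodes E-cadherin, was at 22.1, 23.4 and 25.1 CPM with OVOL2 and 3.01, 6.12 and 2.84 with mCherry, and EPCAM, an epithelial adhesion molecule, at 149.6, 172 and 162 against 31.4, 34.2 and 41.0. Every OVOL2 library was above every mCherry library for both genes. The log2 fold change was 2.56 (SE 0.43, adjusted p = 0.00269) for CDH1 and 2.18 (SE 0.22, adjusted p = 7.84e-05) for EPCAM. Of 11 adhesion genes tested, 5 rose, 1 fell and 5 did not pass, and the median log2 fold change was 0.44. The other risers were CTNNA1, the catenin that links cadherins to actin (0.57), and the further members CDH3, or P-cadherin (0.91), and JUP, or plakoglobin (0.81). NECTIN1, an adherens-junction immunoglobulin protein, fell (−1.28). The list had 2 to 4 calls when 1 library was left out, a loss of over 1.5 times for each library except OVOL2 replicate 3. NECTIN1's adjusted p then reached 0.163 (lost except without OVOL2 replicate 1) and CTNNA1's 0.0889 (lost without OVOL2 replicate 1 or 2 or mCherry replicate 2 or 3).

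Tight-junction genes moved only upwards among those that passed: 4 of 15 rose, none fell, and the median was 0.22. CLDN1, a claudin of the junction strand, was at 104, 111 and 97.0 CPM with OVOL2 and 30.3, 31.9 and 35.1 with mCherry, a 3.20-fold rise (log2 fold change 1.68, SE 0.17, adjusted p = 6.83e-05). F11R, or JAM-A, which recruits polarity proteins to the junction, was at 71.2, 78.7 and 70.1 against 33.0, 32.3 and 20.6 CPM (1.35, SE 0.17, adjusted p = 0.000401). Neither gene's groups overlapped. CLDN7, another claudin, rose by 1.11. TJP3, the junction scaffold ZO-3, rose from 1, 0 and 2 counts to 21, 17 and 17, and no fold is given for it. At so few mCherry counts TJP3 could be called only higher. CLDN6, CLDN8 and CLDN18 had too few counts to be tested. The list kept 2 to 4 calls without 1 library. It had over 1.5 times fewer without OVOL2 replicate 1 or 2 or mCherry replicate 1, and those 3 omissions ended the call of CLDN7 (adjusted p up to 0.0905). In the desmosome list only DSG2, a desmosomal cadherin, rose (0.81, 1 of 9), a call lost when any library but mCherry replicate 1 was left out (adjusted p up to 0.0892). KRT18, the simple-epithelium keratin, was the single keratin of 9 that rose (507 to 595 CPM with OVOL2 and 376 to 407 with mCherry, log2 fold change 0.47), and its call was lost when any 1 of the 6 libraries was left out (adjusted p up to 0.161).

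Polarity and epithelial trafficking genes made a further group, with 5 of 18 up, 1 down and a median of 0.29. AP1M2, the epithelial subunit of the AP-1 sorting adaptor, was at 9.99, 17.3 and 12.2 CPM with OVOL2 and 1.74, 1.27 and 0.948 with mCherry (3.25, SE 0.48, adjusted p = 0.00126). LLGL2, a basolateral polarity protein, was at 28.0, 23.4 and 17.0 against 4.60, 4.86 and 2.37 (2.50, SE 0.36, adjusted p = 0.00110), and PRKCZ, an atypical protein kinase C of the apical complex, rose by 2.28. All 3 separated the groups without overlap. At its low mCherry level AP1M2 could hardly have been called lower. CDS1, a lipid synthesis enzyme placed on the list for its epithelial expression, rose by 2.02, and SH3YL1 by 1.17. SCRIB, another basolateral polarity protein, fell by 0.83, a call lost without OVOL2 replicate 1 or 3 or mCherry replicate 1 or 3 (adjusted p up to 0.155). The list had 3 to 5 calls without 1 library, over 1.5 times fewer without OVOL2 replicate 3 or mCherry replicate 1 or 3.

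The epithelial splicing regulators ESRP1 and ESRP2 both rose. ESRP1 was at 14.8, 14.8 and 14.1 CPM against 1.11, 3.17 and 0.948 (log2 fold change 3.06, SE 0.45, adjusted p = 0.00117) and ESRP2 at 6.92, 6.82 and 5.60 against 1.27, 1.90 and 2.13 (1.88, SE 0.36, adjusted p = 0.00598). They were the only 2 of 16 epithelial transcription and splicing regulators to pass, and both passed whichever library was left out. At their low mCherry levels ESRP1 and ESRP2 could hardly have been called lower. SPINT1, which inhibits the membrane serine proteases of epithelia, was the single member of its list of 10 to rise: it was at 26.4, 21.0 and 21.8 CPM against 7.61, 7.18 and 7.35 (1.64, SE 0.31, adjusted p = 0.00651).

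KDF1, which is known from keratinocyte differentiation, had the second smallest p of the genes that rose. It was at 42.7, 32.5 and 34.4 CPM with OVOL2 against 3.17, 3.17 and 2.84 with mCherry, 11.8-fold (log2 fold change 3.56, SE 0.27, adjusted p = 6.32e-06), and untreated KP4 was at 3.20 ± 0.585 CPM (SD, n = 3). The lowest OVOL2 library was above 32 CPM and the highest mCherry library under 4. Its promoter is shown because it holds 2 of the E-boxes to which ZEB1 can bind, on the letters CACCTG or the reverse CAGGTG, which are in capitals. It is the 300 bases from 250 before to 50 after the annotated start, at chr1:26960419-26960718 on the minus strand of GRCh38.p14, from RefSeq, written 5′ to 3′ along the gene. The matches begin at positions −204 and −31 relative to the start.
KDF1: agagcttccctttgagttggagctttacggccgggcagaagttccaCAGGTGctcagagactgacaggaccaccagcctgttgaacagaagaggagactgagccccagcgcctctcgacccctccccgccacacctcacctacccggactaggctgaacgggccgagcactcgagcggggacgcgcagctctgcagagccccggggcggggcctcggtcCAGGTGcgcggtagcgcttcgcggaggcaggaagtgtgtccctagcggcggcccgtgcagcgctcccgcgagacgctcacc

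Other genes with a small p among the risers had roles outside adhesion. APOE, a lipid-carrying apolipoprotein, was at 165, 165 and 122 CPM with OVOL2 and 31.4, 37.8 and 33.7 with mCherry (2.13, SE 0.22, adjusted p = 8.62e-05). TFPI2, a secreted inhibitor of serine proteases, was at 64.6, 71.5 and 67.2 against 20.6, 14.4 and 13.5 (2.06, SE 0.21, adjusted p = 6.36e-05). Neither overlapped between groups. SFN, the epithelial 14-3-3 protein sigma, rose by 1.29 (156 to 162 CPM with OVOL2 and 61.5 to 68.6 with mCherry), LMTK3, a membrane kinase, by 2.17 (17.6 to 24.8 CPM with OVOL2 and 4.44 to 5.21 with mCherry) and ZNF165, a zinc-finger protein, by 1.75 (29.4 to 36.0 CPM with OVOL2 and 9.52 to 9.72 with mCherry). Among the largest rises were 2 genes near 0 in the controls: IL23A, the p19 subunit of interleukin-23, at 6.15, 8.77 and 9.44 against 0, 0.845 and 0.474 CPM, and G0S2, an inhibitor of the lipase ATGL, at 10.5, 10.9 and 12.3 against 1.27, 1.27 and 0. Their log2 fold changes, 4.25 and 3.61, were fitted from few counts in the mCherry libraries and depend on the prior count. At so few mCherry counts IL23A and G0S2 could be called only higher.

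On the mesenchymal side, VIM and ZEB1 fell. VIM, the intermediate filament vimentin, was at 389, 395 and 392 CPM with OVOL2 and 1930.3, 1744 and 1805 with mCherry, 4.66-fold lower (log2 fold change −2.22, SE 0.09, adjusted p = 1.53e-08). ZEB1, a repressor of epithelial genes, was at 4.15, 2.92 and 2.24 against 17.9, 23.4 and 21.3 CPM (−2.73, SE 0.45, adjusted p = 0.00246). In both cases the groups were far apart. ZEB1 was the single EMT transcription factor of 6 tested to change. In the mesenchymal filament and actomyosin list 6 of 23 fell, none rose and the median was −0.18. TPM2, a tropomyosin, was at 269.9 to 318 CPM with OVOL2 and 549 to 689 with mCherry (−1.02), and ACTN1, an actin crosslinker, at 116 to 137 CPM with OVOL2 and 195 to 218 with mCherry (−0.65). The other 3 were PALLD, MYH10 and PDLIM7, between −0.89 and −0.58. The list had 3 to 5 calls without 1 library, 3 of them without OVOL2 replicate 3.

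Surface and migration genes also fell, 6 of 37 with none up. EMP3, a membrane glycoprotein, was at 14.8, 16.6 and 18.2 CPM with OVOL2 and 78.7, 78.8 and 68.0 with mCherry (−2.18, SE 0.22, adjusted p = 6.94e-05). HEG1, a mucin-like receptor, was at 6.30, 10.1 and 8.32 against 34.9, 35.1 and 33.7 (−2.07, SE 0.25, adjusted p = 0.000245), and SYDE1, a GTPase-activating protein, at 5.69, 5.65 and 7.04 against 19.5, 23.6 and 16.8 (−1.70, SE 0.21, adjusted p = 0.000295). None of the 3 overlapped between groups. CDH2, or N-cadherin (−1.72), the adhesion molecule ALCAM (−1.06) and the caveolar coat gene CAVIN1 (−0.81) fell as well. Fibroblast and stellate markers, whose summed level was also lower, moved with these genes in part, and their share in the fall was not tested. Of 6 tested, RGS5 fell from 49.99 ± 3.56 to 19.2 ± 3.06 CPM (SD, n = 3 each) with a log2 fold change of −1.38, COL3A1 fell (−1.40) and COL1A1 rose (0.86). The calls of the collagens were unstable: COL1A1's was lost when any 1 library was left out (adjusted p up to 0.143), and COL3A1's without OVOL2 replicate 2 or 3 or mCherry replicate 1 (up to 0.0702).

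**Figure D2:**
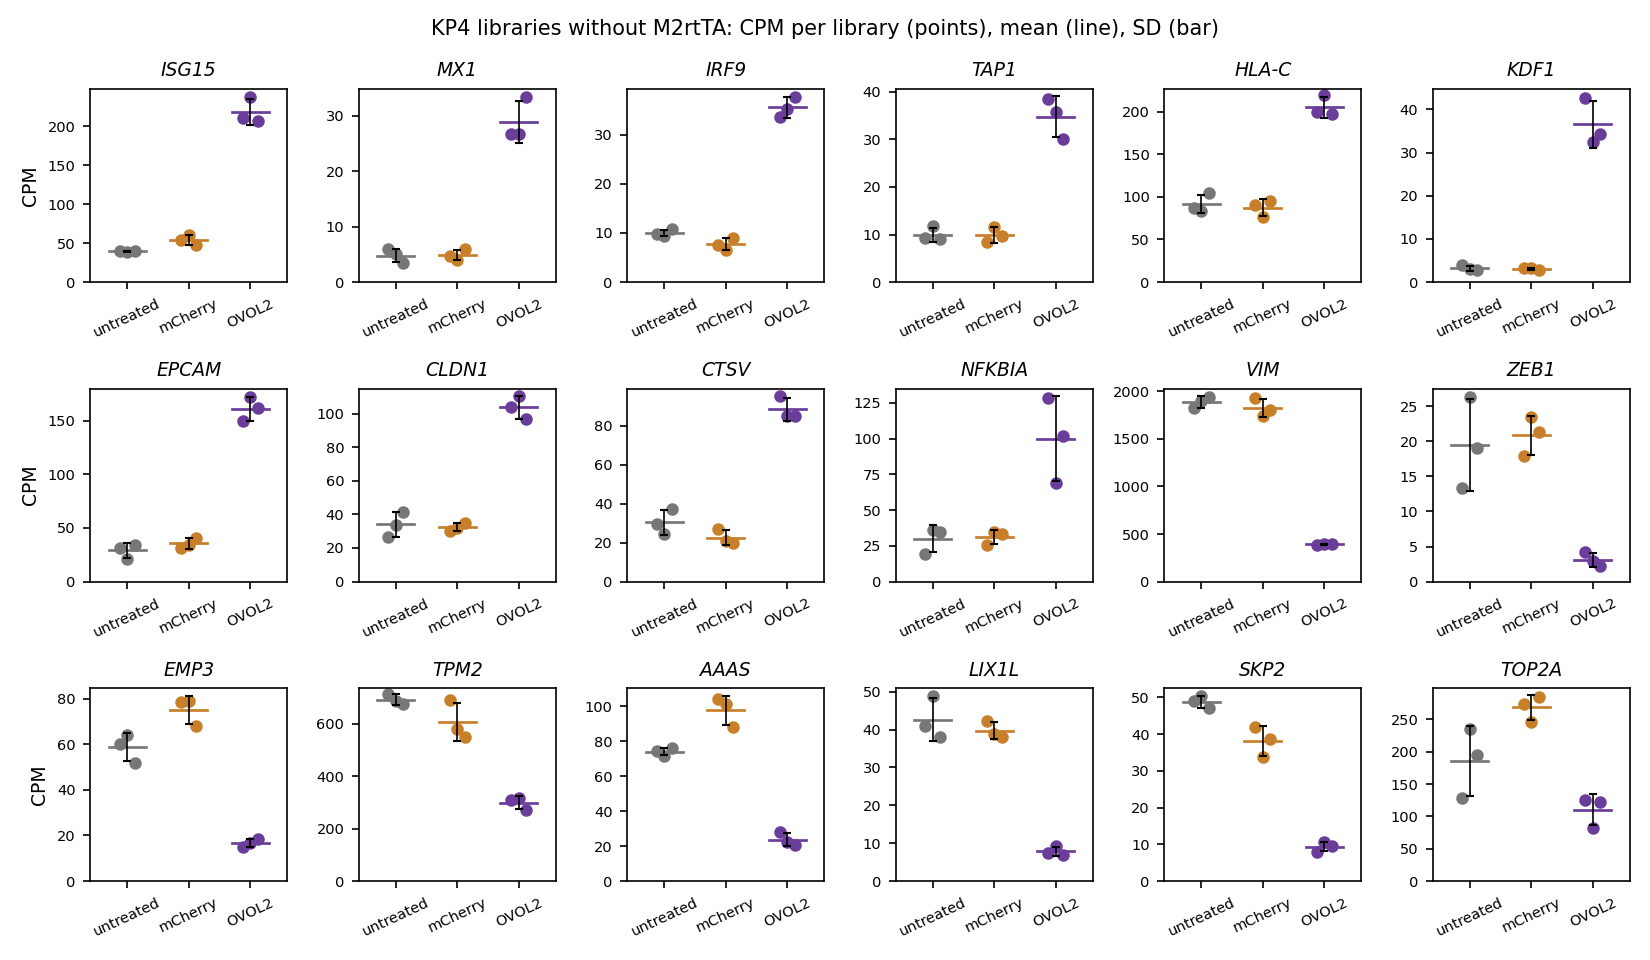
CPM of 18 genes in KP4 without M2rtTA; each point is 1 of the 3 untreated, 3 mCherry or 3 OVOL2 libraries, the line is the mean and the bar the SD. In each panel the OVOL2 libraries lie apart from the mCherry libraries, above them from ISG15 to NFKBIA and below them from VIM to TOP2A. All 18 are called genes, and absence of overlap was a condition for naming many of them.

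Many of the genes with the smallest p among those that fell are not markers of either state. LIX1L, an RNA-binding protein, was at 7.38, 9.16 and 6.88 CPM with OVOL2 and 42.2, 38.9 and 37.9 with mCherry, 5.09-fold lower (−2.35, SE 0.17, adjusted p = 6.32e-06). AAAS, which encodes the nucleoporin aladin, was at 27.8, 22.4 and 20.8 against 104, 101 and 88.2, 4.12-fold lower (−2.04, SE 0.15, adjusted p = 6.32e-06), and was the single nucleoporin of 29 to change. For LIX1L and AAAS the untreated KP4 libraries were at 42.6 ± 5.64 and 74.0 ± 2.19 CPM (SD, n = 3), on the side of the mCherry libraries. LTBP4, a matrix protein that binds latent TGF-beta, was at 2.77, 3.12 and 1.28 against 19.7, 21.1 and 18.5 (−3.05, SE 0.25, adjusted p = 1.06e-05), and GPX8, a peroxidase of the endoplasmic reticulum, at 4.80 to 5.65 CPM with OVOL2 and 21.4 to 28.5 with mCherry (−2.23). SRD5A3, an enzyme of dolichol synthesis, had a log2 fold change of −1.84 (7.53 to 11.1 CPM with OVOL2 and 33.9 to 35.8 with mCherry), EID1, an inhibitor of EP300, of −2.03 (25.6 to 30.7 CPM with OVOL2 and 96.2 to 127 with mCherry), and CXXC5, a zinc-finger protein of WNT signalling, of −1.70 (18.3 to 24.0 CPM with OVOL2 and 64.0 to 74.3 with mCherry). All of these fell without overlap, which was a condition for naming them. HSPB11, an intraflagellar transport protein, IKBIP, an interactor of IKK-beta, and GSS, glutathione synthetase, had log2 fold changes of −1.87, −2.18 and −1.77 and fell. Among the largest falls were CRAT, carnitine acetyltransferase (1.36 to 2.77 CPM with OVOL2 and 17.3 to 18.0 with mCherry), GCHFR, the regulator of GTP cyclohydrolase (0.195 to 1.28 CPM with OVOL2 and 2.96 to 11.4 with mCherry), and PHKA2, a subunit of phosphorylase kinase (2.14 to 2.40 CPM with OVOL2 and 8.24 to 23.2 with mCherry), with log2 fold changes of −3.17, −3.26 and −2.79.

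The promoters of LIX1L and AAAS are shown because each holds the core CCGTTA, the hexamer bound by OVO-family proteins, in capitals. They are RefSeq sequences of GRCh38.p14, from 250 bases before to 50 after the annotated start, both on the minus strand and written 5′ to 3′ along the gene: LIX1L at chr1:145957968-145958267 and AAAS at chr12:53321561-53321860. The match begins at position 36 after the start in LIX1L and at position −17 in AAAS.
LIX1L: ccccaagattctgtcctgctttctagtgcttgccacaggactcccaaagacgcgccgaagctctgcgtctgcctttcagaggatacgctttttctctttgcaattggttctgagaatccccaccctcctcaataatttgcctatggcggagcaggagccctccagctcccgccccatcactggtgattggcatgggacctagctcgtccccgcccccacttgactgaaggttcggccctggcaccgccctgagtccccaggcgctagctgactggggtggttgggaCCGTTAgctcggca
AAAS: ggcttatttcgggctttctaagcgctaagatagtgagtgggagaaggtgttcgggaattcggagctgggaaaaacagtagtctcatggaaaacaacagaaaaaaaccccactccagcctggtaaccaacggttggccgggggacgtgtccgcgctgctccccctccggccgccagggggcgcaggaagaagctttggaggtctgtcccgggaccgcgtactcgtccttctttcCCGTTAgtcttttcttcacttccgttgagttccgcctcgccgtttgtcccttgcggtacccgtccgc

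Promoters of this kind were available for 10764 of the genes tested, 331 that rose and 398 that fell. The core CCGTTA, or TAACGG on the other strand, was in 43 promoters of genes that fell (10.8%), in 4 of genes that rose (1.21%) and in 438 of all (4.07%). The E-box CACCTG, or CAGGTG, was in 25.68% of promoters of genes that rose, 17.09% of those of genes that fell and 18.3% of all. None of the motifs searched contains another, and a match is a stretch of letters and not a measured site. Genes with the OVO core in the promoter had a median log2 fold change of −0.17, and those without it 0.0008. After the KP4 values had been seen, the medians of genes tested in KP4 were read in comparisons between groups without these 6 libraries. They were −0.15 with the core and −0.0014 without in KP4 with M2rtTA, −0.13 and −0.0106 in PANC1, and −0.09 and 0.0032 in PK45H. Among the genes that fell there, 6.92%, 11.15% and 9.44% had the core, beside 4.07%, 4.14% and 4.15% of all promoters tested. The KP4 calls with M2rtTA came from the fit that also held these 6 libraries. These medians are a description, since genes are not independent replicates. Most carriers did not change: 43 of the 438 fell in KP4 without M2rtTA (9.82%), and 3.44% of the genes without the core fell.

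**Figure D3:**
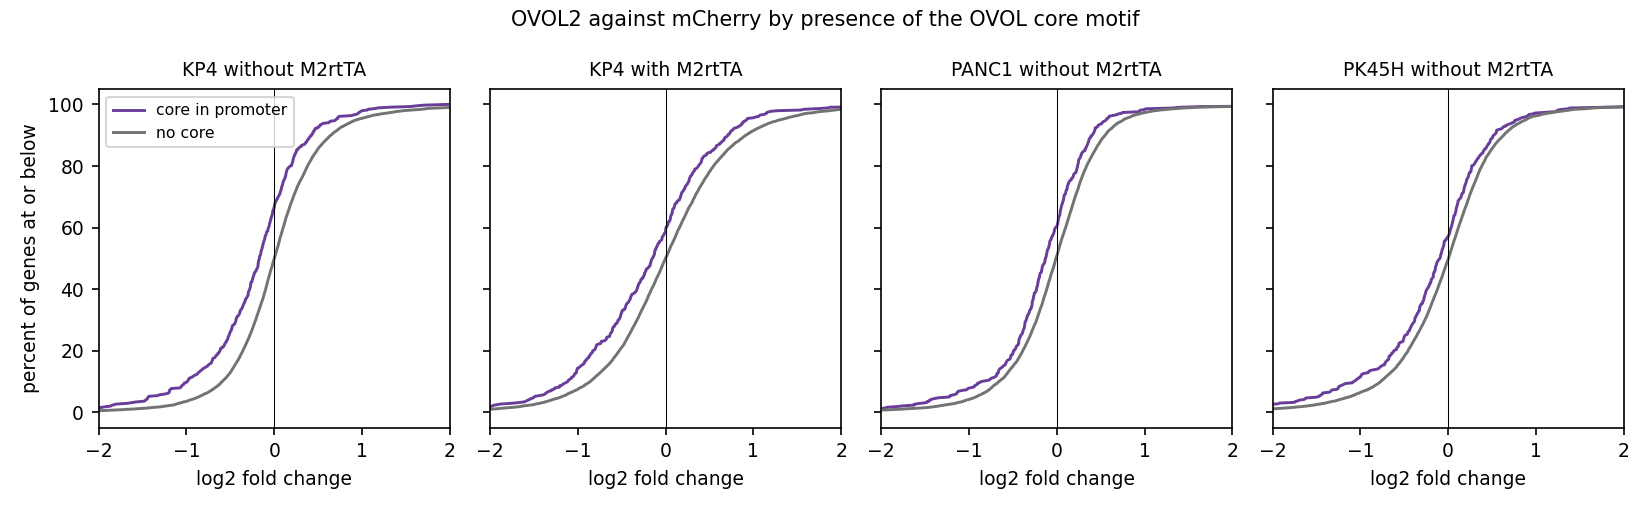
Percent of genes at or below each log2 fold change, OVOL2 minus mCherry, for genes with (purple) and without (grey) CCGTTA or TAACGG in the promoter, in KP4 without and with M2rtTA, PANC1 and PK45H; the axis is cut at −2 and 2. The curve of genes with the core lies to the left around the middle, with medians of −0.17, −0.15, −0.13 and −0.09.

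By number, the interferon-induced genes formed the list with the most members up, 14 of 47 tested with none down. The median log2 fold change was 0.71, and 3.26% of all genes tested rose. This was also the largest list: by share, 5 of 11 adhesion, 6 of 20 MHC class I and 8 of 27 lysosomal genes rose. Their summed level was 2059 to 2290 CPM in the OVOL2 libraries and 1187 to 1309 in the mCherry libraries. ISG15, a ubiquitin-like modifier, had the smallest p of all genes that rose: 210.2, 238 and 206 CPM against 54.1, 60.2 and 47.2, 4.05-fold (2.02, SE 0.12, adjusted p = 6.29e-07), and 39.3 ± 0.232 CPM in untreated KP4 (SD, n = 3). MX1, an antiviral GTPase, was at 26.8, 26.7 and 33.3 against 4.76, 4.01 and 5.92 (2.56, SE 0.21, adjusted p = 1.06e-05), and DDX58, which encodes the viral RNA sensor RIG-I, at 14.8, 12.7 and 13.3 against 3.97, 4.43 and 2.61 (1.87, SE 0.29, adjusted p = 0.00163). The lowest OVOL2 library was above the highest mCherry library for all 3. The other 11 that rose were IFIH1, OAS2, IFIT1, PLSCR1, IFI35, IFITM3, OAS3, UBE2L6, LGALS3BP, IFIT5 and TRIM25, with log2 fold changes from 0.71 (TRIM25) to 2.06 (IFIH1, the sensor MDA5). IFITM3 has near-identical relatives, and counts could be split between them. Without OVOL2 replicate 1 or 2 or mCherry replicate 1 or 2 the list had over 1.5 times fewer calls, 9 at the lowest. Without either of the other two it had up to 12.

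Factors that carry the interferon signal moved in part. IRF9, the DNA-binding part of the STAT complex, was at 33.7, 35.3 and 37.8 CPM with OVOL2 and 7.61, 6.55 and 9.01 with mCherry (2.20, SE 0.17, adjusted p = 6.32e-06), without overlap. IRF7, which drives interferon genes, was at 11.5 to 23.1 CPM with OVOL2 and 3.55 to 5.91 with mCherry (1.75), the receptor chain IFNGR2 rose by 1.11 and the factor IRF1 by 0.64. IFNAR2, a chain of the type I interferon receptor, fell (−0.69), a call lost when any library but OVOL2 replicate 1 was left out (adjusted p up to 0.107). The other 16 of 21 did not pass, and the list had 3 or 4 calls without 1 library. Only the omission of OVOL2 replicate 1 kept it within 1.5 times. IFNB1, the interferon beta gene, was at 0 counts in all 6 libraries, and IFNL1 was at 7, 0 and 0 counts with OVOL2 and 1, 6 and 0 with mCherry.

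MHC class I presentation genes rose in 6 of 20 with none down and a median of 0.27. TAP1, the peptide transporter, was at 38.4, 35.8 and 30.1 CPM against 8.41, 11.6 and 9.72 (1.81, SE 0.21, adjusted p = 0.000174), without overlap. HLA-C and HLA-E rose by 1.23 and 0.92, and HLA-B (0.97), TAPBP (0.84) and TAPBPL (1.03) were the others. HLA genes are close copies of each other, and how the counting divided their reads is not given in the sources used here. The list had 4 to 6 calls without 1 library.

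The ISG15 promoter is shown because it holds the interferon-stimulated response element, searched as GAAA, any 2 bases and GAAA again. Matches begin at positions −113 and −107, so that they overlap, and are in capitals. It lies at chr1:1013247-1013546 on the plus strand of GRCh38.p14, from RefSeq. The element, read on either strand, was in 9 of the 12 promoters available for the interferon-induced genes that rose (75%), and in 25 of the 36 for the list as tested (69.44%). It was in 6.04% of promoters of all genes that rose, 0.5% of those of genes that fell and 2.77% of all.
ISG15: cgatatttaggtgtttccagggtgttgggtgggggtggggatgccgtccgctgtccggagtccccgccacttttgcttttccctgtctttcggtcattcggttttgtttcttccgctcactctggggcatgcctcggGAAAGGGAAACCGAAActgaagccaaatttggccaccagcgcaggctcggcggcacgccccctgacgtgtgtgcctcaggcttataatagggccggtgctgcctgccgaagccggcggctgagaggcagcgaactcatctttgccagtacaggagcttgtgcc

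NF-kB and inflammatory genes rose in 7 of 30 with none down and a median of 0.70. NFKBIA, the inhibitor of NF-kB and itself induced by it, was at 129, 69.2 and 102 CPM with OVOL2 and 25.7, 34.4 and 33.4 with mCherry (1.68, SE 0.26, adjusted p = 0.00159). The cytokine LIF was at 43.4, 51.6 and 52.2 against 17.9, 19.6 and 23.5 (1.27, SE 0.18, adjusted p = 0.000842), and the NF-kB subunit NFKB2 rose by 1.05. None of the 3 overlapped between groups. The remaining 4 were secreted or shed proteins: the neutrophil chemokines CXCL1 (2.03) and CXCL3 (1.54), complement C3 (1.35) and the chemokine CXCL16 (0.82). The list had 6 calls without each library in turn.

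**Figure D4:**
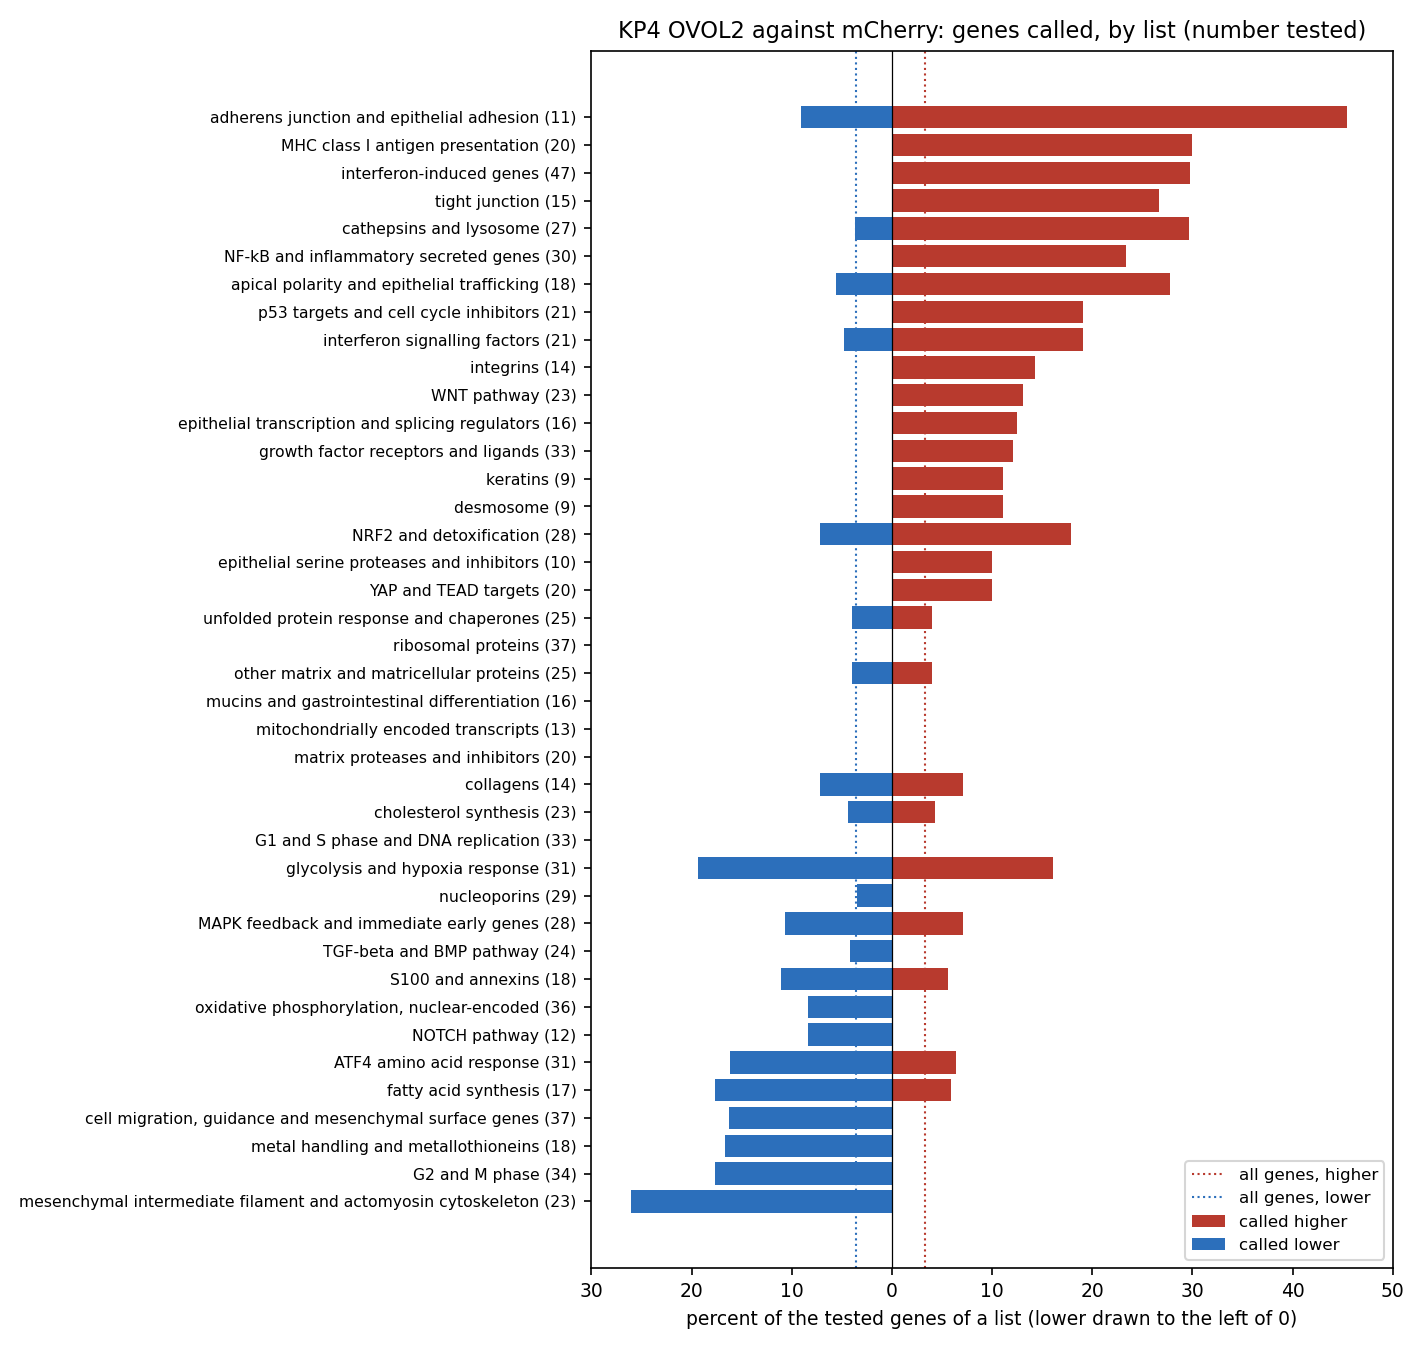
Percent of the members tested (number in brackets) of each gene list that rose (red, to the right) or fell (blue, to the left) with OVOL2 in KP4 without M2rtTA; dotted lines are the shares of all genes tested, 3.26% and 3.56%. The interferon-induced list has 14 members that rose and none that fell, and the G2 and M phase list 6 that fell and none that rose.

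Lysosomal genes rose in 8 of 27, with 1 down and a median of 0.56. CTSV, the protease cathepsin V, was at 95.3, 85.1 and 85.2 CPM against 27.0, 20.9 and 19.9 (1.97, SE 0.17, adjusted p = 1.71e-05). TPP1, a lysosomal peptidase, was at 91.0, 89.6 and 75.2 against 47.6, 44.6 and 41.2 (0.94, SE 0.12, adjusted p = 0.000314). Both separated the groups. CST3, the protease inhibitor cystatin C, rose by 0.56, and other members that rose were LAMP3, CTSD, CSTB and GLA, from 0.74 (GLA) to 1.28 (LAMP3). CTSC, or cathepsin C, fell by 0.65. The count was sensitive to single libraries: it was 2 without mCherry replicate 2, 4 without OVOL2 replicate 3 or mCherry replicate 3, 5 without OVOL2 replicate 1 or 2 and 6 without mCherry replicate 1. The call of CST3 was lost without mCherry replicate 1 or 2 (adjusted p up to 0.0556), and that of CTSC without OVOL2 replicate 1 or 2 or mCherry replicate 2 or 3 (up to 0.127).

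Iron storage and oxidative-stress genes of the NRF2 list rose in 5 of 28 and fell in 2. The ferritin chains FTH1 and FTL were at 1937, 2145 and 1702 CPM against 1046, 1002 and 1027 and at 541, 644 and 558 against 341, 266 and 277. The groups did not overlap, and the log2 fold changes were 0.91 (SE 0.11, adjusted p = 0.000271) and 0.98 (SE 0.14, adjusted p = 0.00125); both genes have many processed copies that could take reads. OSGIN1, an oxidative-stress response gene, rose by 1.81, HMOX1, or haem oxygenase, by 1.36 and NQO1, a quinone reductase, by 0.69. PGD, of the pentose phosphate pathway (−0.86), and AKR1B1, or aldose reductase (−1.13), fell. The latter call was lost without OVOL2 replicate 3 (adjusted p = 0.0589). In the metal-handling list 3 of 18 fell and none rose: the metalloreductases STEAP1 (−1.73) and STEAP3 (−0.91) and the metallothionein MT1E (−1.96), which has near-identical relatives.

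Cell cycle genes leaned downwards. Of 34 G2 and M phase genes, 6 fell and none rose, the median was −0.40 and 33 had a negative log2 fold change. TOP2A, the mitotic topoisomerase, was at 126, 82.8 and 123 CPM with OVOL2 and 274, 247 and 285 with mCherry (−1.28, SE 0.22, adjusted p = 0.00289), and BUB1B, a spindle checkpoint kinase, at 16.5, 19.1 and 10.6 against 41.9, 29.4 and 32.5 (−1.17, SE 0.20, adjusted p = 0.00373). Neither overlapped. PTTG1, or securin, fell by 0.72, and the others were CENPF, AURKA and BIRC5. The call of PTTG1 was lost in the fit of all 51 libraries (adjusted p = 0.0908). The summed level of the list was 2112 to 2206 CPM with OVOL2 and 2887 to 3054 with mCherry. The list had 3 to 6 calls without 1 library, 3 without OVOL2 replicate 2. None of the 33 G1 and S phase genes passed in edgeR (7 at an unadjusted p under 0.05, and 2 lower with DESeq2), although 29 had a negative log2 fold change and the median was −0.29. Among the highest members of that list by level, TYMS, the thymidylate synthase, was at 194 to 263 CPM with OVOL2 and 206 to 371 with mCherry. The summed level of the list was 2200 to 2315 CPM against 2762 to 2837.

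SKP2, the F-box protein that targets the cell cycle inhibitor p27 for degradation, was among the 12 genes with the smallest p that fell. It was at 7.99, 10.5 and 9.44 CPM with OVOL2 and 41.9, 33.8 and 38.6 with mCherry, 4.09-fold lower (−2.03, SE 0.19, adjusted p = 2.71e-05). In the list of p53 targets and cell cycle inhibitors 4 of 21 rose, none fell and the median was 0.54. CDKN1A, or p21, was at 76.9, 69.5 and 84.4 CPM against 44.6, 52.6 and 44.8 (0.70, SE 0.13, adjusted p = 0.00482), without overlap. GADD45A (0.68), TP53I3 (0.61) and GADD45B (0.72) were the others. Only 1 or 2 calls were left on this list when any 1 of the 6 libraries was left out. TP53I3 lost its call without each of them (adjusted p up to 0.142), and GADD45A without OVOL2 replicate 1 or 2 or mCherry replicate 1 or 3 (up to 0.101).

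Glycolysis and hypoxia genes moved both ways, 5 of 31 up and 6 down, with a median of −0.24. Among glycolytic enzymes that fell, GAPDH was at 1747, 2066 and 1651 CPM with OVOL2 and 2824, 3211 and 3269 with mCherry (−0.77, SE 0.14, adjusted p = 0.00419), and LDHA, lactate dehydrogenase A, at 375, 399 and 369 against 654, 679.9 and 676 (−0.81, SE 0.13, adjusted p = 0.00230). ENO2 (−0.84), PKM (−0.51) and PGAM1 (−0.47) fell with them, as did CA12, a carbonic anhydrase (−1.73). GAPDH has many processed copies, and reads could be split among them. The members that rose were the mitophagy receptor BNIP3L (1.53), the peptide hormone ADM (1.29), the glucose transporter SLC2A3 (1.04), the collagen hydroxylase P4HA2 (1.29) and ANGPTL4 (0.82). The list had 6 to 8 calls without 1 library, over 1.5 times fewer except without mCherry replicate 2. ENO2 lost its call without OVOL2 replicate 1 or mCherry replicate 2 (adjusted p up to 0.0768).

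Of 31 genes of the ATF4 amino acid response 5 fell and 2 rose. The serine-pathway enzymes PHGDH (−0.87; 92.7 to 101 CPM with OVOL2 and 165 to 195 with mCherry), SHMT2 (−0.70) and PSAT1 (−0.55) fell, with the tRNA ligase AARS1 (−0.67) and the amino acid transporter SLC7A5 (−0.49). DDIT3, the stress factor CHOP, and STC2, a secreted glycoprotein, rose (0.73 and 1.00). The list had 3 to 5 calls without 1 library, over 1.5 times fewer except without mCherry replicate 3. The calls lost were those of AARS1 (without OVOL2 replicate 2 or 3 or mCherry replicate 1, adjusted p up to 0.0712), SHMT2 (OVOL2 replicate 1, 0.0503), DDIT3 (OVOL2 replicate 1 or 2 or mCherry replicate 1 or 2, up to 0.0991) and STC2 (OVOL2 replicate 1 or 3 or mCherry replicate 3, up to 0.085). Among 25 chaperone and unfolded-protein genes, HSPD1, a mitochondrial chaperonin, fell (−0.69) and HSPB1, a small heat-shock protein, rose (0.42). The call of HSPB1 was lost when any library but mCherry replicate 3 was left out (adjusted p up to 0.180).

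Lipid synthesis genes did not move as a block. SCD, the desaturase that makes oleate, was at 79.9, 89.6 and 81.8 CPM against 35.8, 29.6 and 35.8 (1.31, SE 0.19, adjusted p = 0.00101), without overlap, and was the only 1 of 17 fatty acid genes to rise. ELOVL5 (−1.11), FADS1 (−0.70) and ACSL4 (−0.66), which elongate, desaturate and activate polyunsaturated fatty acids, fell. These 3 calls depended on single libraries: ACSL4 was lost when any 1 of the 6 was left out (adjusted p up to 0.128), ELOVL5 when any but mCherry replicate 2 was (up to 0.183) and FADS1 without OVOL2 replicate 2 (0.0562). Of 23 cholesterol genes FDPS fell (−0.72) and MSMO1 rose (0.60). FDPS was lost without OVOL2 replicate 2 or mCherry replicate 1 or 3 (up to 0.0575), and MSMO1 when any library but mCherry replicate 1 was left out (up to 0.183). Of 36 nuclear-encoded respiratory-chain genes 3 fell, NDUFA1 (−0.75), NDUFB10 (−0.61) and ATP5MC1 (−0.54). NDUFB10 was lost without OVOL2 replicate 1 or 3 or mCherry replicate 1 or 2 (up to 0.119), and ATP5MC1 without OVOL2 replicate 1 or 2 or mCherry replicate 1 or 2 (up to 0.132).

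Growth factor receptors and ligands rose in 4 of 33 and none fell. DDR1, the epithelial collagen receptor kinase, was at 14.9, 16.4 and 11 CPM with OVOL2 and 5.71, 6.33 and 4.98 with mCherry (1.31, SE 0.24, adjusted p = 0.00483). AREG, the EGF receptor ligand amphiregulin, was at 25.3 to 40.5 CPM with OVOL2 and 7.82 to 12.5 with mCherry (1.71). Neither overlapped. The receptors FGFR4 (2.10) and FGFR3 (1.52) were the other two, and 3 calls were made on the list without each library in turn. Of 28 MAPK feedback and immediate early genes, ETV5 (−1.32), ETV1 (−1.43) and SPRY4 (−1.06), which follow FGF and ERK signalling, fell. DUSP5, an ERK phosphatase, and JUNB rose (0.83 and 0.75). That list had 3 to 5 calls without 1 library, over 1.5 times fewer except without OVOL2 replicate 3 or mCherry replicate 1. ETV1 was lost without OVOL2 replicate 1 or 2 or mCherry replicate 2 or 3 (adjusted p up to 0.0812), and JUNB when any library but OVOL2 replicate 3 was left out (up to 0.0952).

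Of the integrins and of the collagens 14.3% were called, and of other matrix genes 8.0%, beside 6.8% of all genes tested. LOXL2, a collagen crosslinker, was at 7.38, 7.60 and 8.32 CPM against 20.9, 16.3 and 20.9 (−1.31, SE 0.25, adjusted p = 0.00638). It was 1 of the 2 of 25 matrix genes that changed, apart from the 14 collagens described with the fibroblast markers. ITGB4, a laminin receptor chain, and ITGA2, a collagen receptor chain, rose by 1.76 and 1.61, 2 of 14 integrins. Of 18 S100 and annexin genes S100A11 rose (0.86; 2256 to 2465 CPM with OVOL2 and 1184 to 1501 with mCherry), and ANXA5 (−1.07) and ANXA6 (−1.57) fell. None of the 20 matrix proteases and inhibitors passed in edgeR or DESeq2 (2 at an unadjusted edgeR p under 0.05): TIMP1 was at 447 to 516 CPM with OVOL2 and 361 to 449.9 with mCherry and PLAU at 101 to 138 CPM with OVOL2 and 59.8 to 158 with mCherry. Without OVOL2 replicate 1, 1 member of that list passed.

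The further signalling lists (WNT, TGF-beta and BMP, NOTCH, YAP and TEAD) had 1 to 3 calls each. By share, only the TGF-beta and BMP list (4.2% called) was below all genes tested (6.8%). The WNT, NOTCH and YAP and TEAD lists were above that share. In the WNT list 3 of 23 rose: the ligand WNT9A (2.33) and the inhibitors DKK1 (0.75) and NKD2 (0.61), the last of which was lost when any library but OVOL2 replicate 3 was left out (adjusted p up to 0.118). The call of DKK1 was lost with only the groups compared in the fit (adjusted p = 0.0541) and with all 51 libraries (adjusted p = 0.130). Of 24 TGF-beta and BMP genes SMAD6, an inhibitory SMAD, fell (−1.06), lost without OVOL2 replicate 3 or mCherry replicate 2 (up to 0.0699). Of 12 NOTCH genes HES1, a target of the pathway, fell (−0.94), lost without OVOL2 replicate 3 or mCherry replicate 2 (up to 0.0522). The kinase NUAK2 rose by 1.62 in the list of 20 YAP and TEAD targets, with GADD45A the only other call. No member passed among the 16 mucins and gastrointestinal genes, the 13 mitochondrially encoded transcripts or the 37 ribosomal proteins in edgeR or DESeq2, with 3 members of each list at an unadjusted edgeR p under 0.05. Among their members with the highest levels, the mucin-list genes REG4 and GPX2 were at 9.22 to 13.4 CPM with OVOL2 and 8.41 to 13.9 with mCherry and at 10.1 to 13.1 CPM with OVOL2 and 6.34 to 10.2 with mCherry. The mitochondrial ND2 was at 28894 to 30587 CPM with OVOL2 and 30023 to 33182 with mCherry, and the ribosomal RPL37 at 6055 to 6551 CPM with OVOL2 and 6648 to 7282 with mCherry. Apart from the fibroblast and stellate markers described above, none of the markers of other cell types with enough counts to be tested passed in edgeR or DESeq2, and 0 had an unadjusted edgeR p under 0.05: LYZ and CD52 for leukocytes, PECAM1 and EMCN for endothelium and CPB1 for acini.

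The KP4 effect was then set against OVOL2 in PANC1 and PK45H, PDA lines treated in the same way. OVOL2 against mCherry changed 671 of 13218 genes in PANC1 (5.08%) and 1139 of 13583 in PK45H (8.39%), each in its own fit. The difference itself, the KP4 effect minus the mean effect in the other lines, was tested in 1 fit of 45 libraries: 135 of 14943 genes passed (0.903%), 81 with a positive difference (0.542%) and 54 with a negative one (0.361%). ISG15 had the smallest p of the positive differences, at 1.48 (SE 0.17, adjusted p = 7.17e-06), with log2 fold changes of 2.02 in KP4, 0.69 in PANC1 and 0.33 in PK45H. MX1, whose log2 fold changes were 2.56, −0.10 and −0.02, differed by 2.59 (SE 0.47, adjusted p = 0.00285). In all, 7 of the interferon-induced genes tested differed, 5 of the NF-kB list, 4 each of the chaperone list and of the matrix protease list, 3 of the mitochondrially encoded transcripts, and 2 or fewer of each other list, MHC class I (2) among them. NFKBIA differed by 1.68 (SE 0.36, adjusted p = 0.0110) and TAP1 by 1.21 (SE 0.26, adjusted p = 0.0110), and each of these 2 lost its call without KP4 mCherry replicate 1 (adjusted p = 0.0512 and 0.0574), and TAP1 also with only these groups in the fit (adjusted p = 0.0627). The junction gene CLDN1 also differed (1.26, SE 0.26, adjusted p = 0.00895).

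The remaining positive differences named by the same rule were genes of other kinds. S100A4, a calcium-binding protein known from motile cells, did not pass in KP4 (14.3 to 24.6 CPM with OVOL2 and 11.8 to 15.4 with mCherry; adjusted p = 0.148), and fell in PANC1 (−1.59) and PK45H (−0.85), so that the difference was 1.70 (SE 0.21, adjusted p = 1.25e-05). TM4SF1, a tetraspanin-like surface protein, had log2 fold changes of 0.55 in KP4, 0.20 in PANC1 and −1.45 in PK45H, a difference of 1.14 (SE 0.16, adjusted p = 7.79e-05). Its call in KP4 alone was lost when any 1 of the 6 libraries was left out (adjusted p up to 0.109). INPP5F differed by 4.25 (SE 0.59, adjusted p = 7.79e-05), but its KP4 values were 36.9, 909 and 509 CPM with OVOL2 against 28.2, 47.9 and 37.9, so that OVOL2 replicate 1 lay with the mCherry libraries. On the negative side LTBP4 had log2 fold changes of −3.05, −0.61 and −0.73 in the same order (difference −2.41, SE 0.38, adjusted p = 0.000484). MAP7, a microtubule-associated protein of epithelia, rose by 0.78 in KP4, with log2 fold changes of 2.06 and 2.83 in the other lines (difference −1.69, SE 0.27, adjusted p = 0.000660). Its KP4 call was lost when any library but mCherry replicate 2 was left out (adjusted p up to 0.118). KRT80, a keratin, was at −0.52, 0.38 and 1.15 (difference −1.32, SE 0.20, adjusted p = 0.000351), and the linker histone H1-2, whose family members are alike, at −0.46, 1.47 and 0.33 (difference −1.39, SE 0.21, adjusted p = 0.000320). H1-2's call in KP4 was lost when any 1 library was left out (adjusted p up to 0.115). The number of genes that differed went from 135 to 78 without KP4 mCherry replicate 1 and to 80 without KP4 OVOL2 replicate 2.

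**Figure D5:**
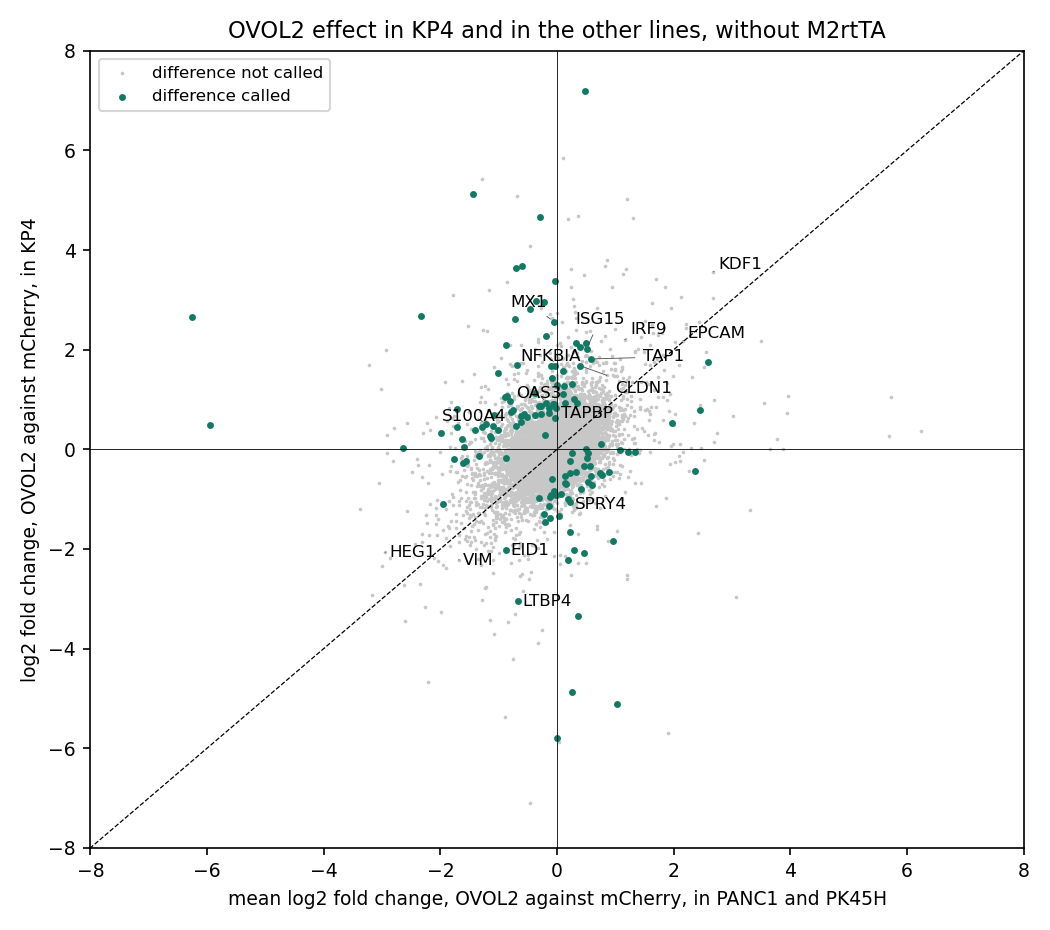
Log2 fold change in KP4 without M2rtTA against the mean log2 fold change in PANC1 and PK45H, for 12505 genes present in every fit. Green points are the 130 plotted genes whose difference passed the test, and the dashed line marks equal effects; ISG15 and MX1 lie above it and LTBP4 below it.

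With M2rtTA, OVOL2 against mCherry changed 3057 of 13662 genes in KP4 (22.4%). The difference between that effect and the effect without M2rtTA passed for 195 genes (1.43%), 57 with a positive difference (0.417%) and 138 with a negative one (1.01%). ISG15 was again the positive gene with the smallest p: its log2 fold change was 3.62 with M2rtTA and 2.02 without, a difference of 1.60 (SE 0.16, adjusted p = 0.000950). TUBB4A, a beta-tubulin with close relatives, fell without M2rtTA (−2.51) and was at 1.22 with it (difference 3.73, SE 0.45, adjusted p = 0.00295). APLP1 (−0.29 without and 0.88 with M2rtTA) and ASMTL (0.10 and 1.41) were the other positive ones named. The negative ones were MRPL41, a mitochondrial ribosomal protein (0.01 and −1.81, difference −1.83, SE 0.19, adjusted p = 0.000950), the ATPase RUVBL2 (−0.35 and −1.68), the cAMP-responsive factor CREM (−0.44 and −1.96) and ALDH1A1 (0.03 and −1.38). Only 78 genes differed without KP4 mCherry replicate 3.

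For 3 of the genes with the largest fold changes a single library set the value. HOMER2 was at 13.1, 15 and 337 CPM with OVOL2 and 10.9, 12.7 and 8.53 with mCherry, and without OVOL2 replicate 3 its log2 fold change went from 3.50 to 0.38 (adjusted p = 0.69). PPP3CA was at 25.4, 12.9 and 16.3 against 306, 56.0 and 28.4, and went from −2.84 to −1.21 (adjusted p = 0.253) without mCherry replicate 1. OIP5-AS1, an antisense RNA whose reads may not be separable from its partner, was at 70.6, 53.8 and 73.0 against 10726, 131 and 76.1, and went from −5.79 to −0.65 (adjusted p = 0.172) without the same library. These 3 calls were also lost without other libraries: HOMER2 when any mCherry library was left out, and PPP3CA and OIP5-AS1 when any OVOL2 library was.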

How the data were processed

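Gene-level 3′ counts were analysed for KP4 with OVOL2 or mCherry without M2rtTA, 3 libraries each. The values deposited by the authors were unnormalised whole-number counts for each gene symbol; the submitters' processing notes name kallisto 0.44.0 and GRCh38, and the step from transcripts to gene counts and the handling of molecular identifiers are not given in the sources used here. All 51 columns were matched to samples and 0 stayed unmatched.

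Counts were tested in R 4.3.3 with edgeR 4.0.16: filterByExpr by group, TMM scaling, and the two-sided quasi-likelihood test on 15 KP4 libraries in 5 groups (45 in 15 groups for the difference between lines), with Benjamini-Hochberg adjusted p under 0.05 as the threshold. The procedure was tested on simulated data. The filter kept a gene expressed in any group, so a gene close to absent with mCherry could be called only higher. SEs were derived from the test statistic.

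Named genes were VIM, ZEB1, GRHL2, ESRP1, EPCAM, CDH1 and OVOL2; of called genes without overlap and at 5 CPM or more in the higher group, the 12 smallest p and the 6 largest fold changes per direction; per list the 3 smallest p per direction, or the 2 highest members where none was called; and the 4 smallest p per direction of each difference of effects. Other genes named in the text (further called members of lists, MX1, NFKBIA, TAP1 and CLDN1 among differences between lines, the interferon genes IFNB1 and IFNL1) were chosen after their values were seen. A few genes that the rule selects are not reported here. The libraries compared, the 46 gene lists and the rule were chosen with earlier results of these data known. Whether replicate numbers pair libraries is not given in the labels, and no pairing was used. Deviations of same-numbered libraries of the groups compared correlated at 0.135, 0.0389 and −0.0021. Those of differently numbered libraries correlated at −0.151 to 0.118. So few values cannot exclude pairing. Libraries of a group differed by more than sampling noise in every pair. Promoters came from RefSeq (GRCh38.p14).

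Alternatives tried were robust dispersion, thinning to equal depth, RLE scaling, no low-count filter or a mean count of at least 10, DESeq2 1.42.0, only the groups compared, all 51 libraries, a replicate block, and leaving out each library.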

Additional observations from a re-analysis of the deposited data

Results flagged for a closer look

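OVOL2 effects differed between cell lines and with M2rtTA by the test of the difference itself (edgeR quasi-likelihood, Benjamini-Hochberg). The KP4 effect differed from the mean effect in PANC1 and PK45H for 135 genes. Among the genes named, the difference was positive for the interferon-induced ISG15 (1.48, SE 0.17, adjusted p = 7.17e-06), for S100A4 (1.70, SE 0.21, adjusted p = 1.25e-05), for TM4SF1 (1.14, SE 0.16, adjusted p = 7.79e-05) and for INPP5F (4.25, SE 0.59, adjusted p = 7.79e-05), and negative for LTBP4 (−2.41, SE 0.38, adjusted p = 0.000484), MAP7 (−1.69, SE 0.27, adjusted p = 0.000660), H1-2 (−1.39, SE 0.21, adjusted p = 0.000320) and KRT80 (−1.32, SE 0.20, adjusted p = 0.000351). All 8 kept their call under each of 27 alternatives.

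The effect in KP4 with M2rtTA differed from that without it for 195 genes. The difference, with minus without, was positive for ISG15 (1.60, SE 0.16, adjusted p = 0.000950), TUBB4A (3.73, SE 0.45, adjusted p = 0.00295), APLP1 (1.16, SE 0.16, adjusted p = 0.00496) and ASMTL (1.31, SE 0.19, adjusted p = 0.00614). It was negative for MRPL41 (−1.83, SE 0.19, adjusted p = 0.000950), RUVBL2 (−1.33, SE 0.16, adjusted p = 0.00295), CREM (−1.53, SE 0.20, adjusted p = 0.00496) and ALDH1A1 (−1.41, SE 0.17, adjusted p = 0.00325). ALDH1A1 and ASMTL lost their call in the fit of all 51 libraries (adjusted p = 0.175 and 0.0842), and the other 6 kept theirs under each of 21 alternatives. In KP4 without M2rtTA, ISG15 and TUBB4A passed, and the other 6 (APLP1, ASMTL, MRPL41, RUVBL2, CREM and ALDH1A1) did not.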

How the results depend on the processing

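The 932 genes changed in KP4 numbered 915 with RLE scaling, 684 without a filter on low counts, 968 with a mean count filter, 1137 with DESeq2, 883 with all 51 libraries, 809 after thinning and 946 with robust dispersion. With only the groups compared in the fit there were 532, and without each library in turn 471 to 566. Both use fewer samples. The difference between KP4 and the other lines passed for 238 genes with DESeq2, 76 with only the groups compared and 88 after thinning, against 135, and for 78 to 135 without each library. The difference by M2rtTA passed for 114 genes without a filter, 455 with DESeq2 and 116 with only the groups compared, against 195, and for 78 to 177 without each library; the cause was not tested. Whether replicate numbers pair libraries is not known, and with a replicate block the 3 counts were 738, 98 and 112. No scaling moved the median of all genes by over 0.1 on the log2 scale.

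Of the 130 named genes that changed, 89 kept direction and call under every alternative and none reversed. The OVOL2 level difference ranged from −0.32 to 0.44 without each library. Among the named genes, signs turned only for genes that did not pass. OVOL2 was at 0.0091 without a filter, 0.022 with DESeq2, 0.039 with the replicate block and −0.53 to 0.60 without each library. REG4 was at −0.00038 with a mean count filter, −0.0036 with all libraries, −0.00074 with the block, −0.11 after thinning and −0.17 to 0.21 without each library. The ranges without each library were −0.011 to 0.048 for ALDH1A1, −0.45 to 1.05 for CD52, −0.20 to 0.012 for CPB1, −0.20 to 0.57 for EMCN, −0.062 to 0.064 for MRPL41, −0.011 to 0.037 for ND4, −0.27 to 0.57 for PECAM1 and −0.29 to 0.32 for PLAU.

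Searched on the coding strand alone, the E-box was in 14.5% of promoters of genes that rose, 6.78% of those that fell and 9.33% of all. The OVO core was then in 5.28% of those that fell and 2.02% of all, and the interferon element in 1.37% of all, as a search of 1 strand finds fewer matches. With 3 libraries a group and 4197270 to 6503286 counts each, genes that the low-count filter removed could not be assessed. GRHL2, at 7, 3 and 4 counts with OVOL2 and 5, 10 and 7 with mCherry, was among them.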
